A study of Mus musculus with 6 samples.

Results

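The 10 genes described here belong to the endoplasmic reticulum (ER) unfolded protein response: *Hspa5*, *Hsp90b1*, *Calr*, *Pdia4*, *Herpud1*, *Dnajb9*, *Xbp1*, *Atf4*, *Atf6* and *Ddit3*. They were chosen by symbol, and each matched 1 of the 47069 genes in the table. The libraries came from LβT2, an immortalized mouse pituitary gonadotrope line recorded at 14 passages, and were made from polyA RNA. The cells behind all 6 libraries were plated at 350000 per well and received GnRH at 2 nM over 40 min. The fresh group (3 libraries) was lysed directly after trypsin and pelleting, and the study's protocol then kept such lysates frozen. The RNA-Best group (3 libraries) was stored before lysis in RNA-Best, a proprietary cell preservation reagent, at 4°C and for 4 days or more. The comparison asks whether the levels of these genes in preserved cells differed from those in fresh cells. Every library had received GnRH, so a response of these genes to GnRH cannot be told apart from their resting level here. With 1 cell line in bulk, fewer cells with a transcript and less of it per cell cannot be told apart either.

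The unfolded protein response adjusts the folding capacity of the ER to the load of secretory proteins, such as the glycoprotein hormones of gonadotropes. It has sensors in the ER membrane: IRE1 (gene *Ern1*), which splices the mRNA of *Xbp1*; PERK (*Eif2ak3*), which lowers general translation while favouring that of *Atf4*; and ATF6, which is cut in the Golgi to free a transcription factor. Their outputs are chaperones, components that remove misfolded proteins for degradation, and regulators such as CHOP (*Ddit3*). Splicing of *Xbp1*, translation of *Atf4* and cleavage of ATF6 do not show in gene counts.

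ATF6 and XBP1 are known to act through the ER stress response element (ERSE), with the letters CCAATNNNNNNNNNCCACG, and through a shorter form, ERSE-II, with the letters ATTGGNCCACG. Both were searched on both strands in the RefSeq promoter windows of GRCm38.p6, which run from 250 bases before to 50 bases after each gene start. Of the 10 genes, 9 had a window, and *Atf6* had none. ERSE letters were found in *Hspa5*, *Calr* and *Hsp90b1* (on both strands in the last), and in 39 of 32851 windows in all, or 0.119%. ERSE-II letters were found in *Herpud1*, and in 12 windows in all, or 0.0365%. Both motifs hold the CCAAT box, whose letters stood in 37.4% of windows and in 8 of the 9. The matches are printed on the gene's strand, 5′ to 3′, with the motif in capitals and 20 bases on either side, because they mark which of these genes carry the textbook element. In *Calr* and in the second stretch of *Hsp90b1* the motif is on the opposite strand, so its reverse complement is what appears. The stretches lie at chr2:34772005-34772063 (plus strand) for *Hspa5*, chr8:84847055-84847113 (minus strand) for *Calr*, chr10:86705618-86705676 and chr10:86705513-86705571 (minus strand) for *Hsp90b1*, and chr8:94386357-94386407 (plus strand) for *Herpud1*.
Hspa5 ERSE: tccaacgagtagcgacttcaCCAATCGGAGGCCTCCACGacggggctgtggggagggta
Calr ERSE: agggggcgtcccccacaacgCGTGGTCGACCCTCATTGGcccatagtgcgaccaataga
Hsp90b1 ERSE, distal: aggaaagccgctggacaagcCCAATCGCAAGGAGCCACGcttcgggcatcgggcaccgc
Hsp90b1 ERSE, proximal: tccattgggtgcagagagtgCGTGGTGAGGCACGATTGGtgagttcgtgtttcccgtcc
Herpud1 ERSE-II: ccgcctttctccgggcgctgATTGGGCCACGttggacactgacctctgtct

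Depth was 14477304 to 47438746 counts in the fresh and 4909418 to 11999363 counts in the RNA-Best libraries, so counting error alone is smaller in the fresh libraries. The coefficient of variation over libraries was lower in RNA-Best for *Hspa5*, *Xbp1*, *Atf4* and *Atf6* and lower in fresh for the other 6 genes. Gonadotrope identity was plain from *Cga*, *Nr5a1*, *Pitx1* and *Gnrhr*, while *Fshb* was at 0 in every library. *Cga* had 1790 to 1830 CPM (counts scaled by the library's total) in fresh and 1410 to 1450 CPM in RNA-Best libraries. *Nr5a1* went from 435 to 439 CPM down to 372 to 387 CPM, and *Pitx1* from 657 to 689 CPM down to 568 to 605 CPM. *Gnrhr* went from 109 to 125 CPM up to 159 to 173 CPM. Of 16 markers of other pituitary or stromal cell types, 13 stayed under 1 CPM in all libraries and 5 (*Prl*, *Trhr*, *Sox2*, *Dcn* and *Ptprc*) were at 0. Their summed level was 44.6 to 45.8 CPM in fresh and 41.4 to 44.0 CPM in RNA-Best libraries, nearly all of it *Pecam1*. Whether each library was a culture of its own is not given in the sources used here, and p-values then measure the spread between these libraries, which may be technical.

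The 10 genes together held 0.312% to 0.321% of all counts in fresh and 0.291% to 0.301% in RNA-Best libraries. Levels between genes were compared as CPM per kilobase of exons. In fresh libraries *Atf4* was highest, at 377 ± 7.44 CPM per kb (SD, n = 3). It was followed by *Calr* at 216 ± 3.57, *Hspa5* at 200 ± 5.86 and *Hsp90b1* at 93.1 ± 1.78 CPM per kb (SD, n = 3). These ranked above 95.5% to 99.0% of all genes tested. *Pdia4* stood at 53.2 ± 0.992, *Herpud1* at 32.6 ± 0.337 and *Xbp1* at 32.1 ± 0.639 CPM per kb (SD, n = 3). At the low end were *Dnajb9* at 16.04 ± 0.214, *Ddit3* at 9.11 ± 0.188 and *Atf6* at 7.70 ± 0.218 CPM per kb (SD, n = 3). Neighbours in this order did not overlap, except *Herpud1* and *Xbp1*. In RNA-Best libraries the order was the same apart from its end. There *Atf6*, at 9.23 ± 0.254 CPM per kb (SD, n = 3), had the higher mean and *Ddit3* 9.04 ± 0.478 (SD, n = 3), with overlapping ranges, while *Herpud1* and *Xbp1* no longer overlapped.

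Changes between the groups were small. All 14736 genes past a filter on low counts were fitted together in edgeR and compared by its quasi-likelihood test, and a gene is said to pass where its Benjamini-Hochberg adjusted p was under 0.05. All 10 genes passed the filter and 6 passed the test: *Hspa5*, *Calr*, *Xbp1* and *Atf4* fell in RNA-Best, and *Dnajb9* and *Atf6* rose. Among all genes tested 50.8% passed, 26.0% higher and 24.8% lower in RNA-Best, so 6 of 10 is near the background. The CPM of the groups did not overlap in 6 of the 10 genes, beside 57.5% of all genes. In *Dnajb9* and *Atf6* all RNA-Best libraries lay above all fresh ones, as in 30.4% of all genes, and in *Hspa5*, *Herpud1*, *Xbp1* and *Atf4* below them, as in 27.1%. The median log2 fold change of the 10 genes was -0.07, against -0.01 for all genes. With the length offset this order turned, at -0.02 for the 10 and -0.04 for all genes, and also with the length offset and replicate block together, at -0.03 and -0.04. In the reported fit their median absolute change was 0.113, against 0.188. Each of the 10 was under 0.5 in absolute log2 fold change. The split of 2 higher and 4 lower was 1 and 6 with an offset for GC content, 1 and 3 with one for gene length, and 1 and 7 with no filter on low counts. The split of all genes, 3828 higher and 3651 lower, was 3208 and 3859 with the GC offset. It was 2283 and 3706 with the length offset, and 3256 and 4381 with no filter, where 27250 genes were tested. With the length offset the number of falls went up among all genes and down, from 4 to 3, among the 10. When edgeR's glmTreat was asked for a change beyond 1.2-fold, 0 of the 10 passed (0 also at an unadjusted p under 0.05), where 11.5% of all genes did.

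**Figure D1:**
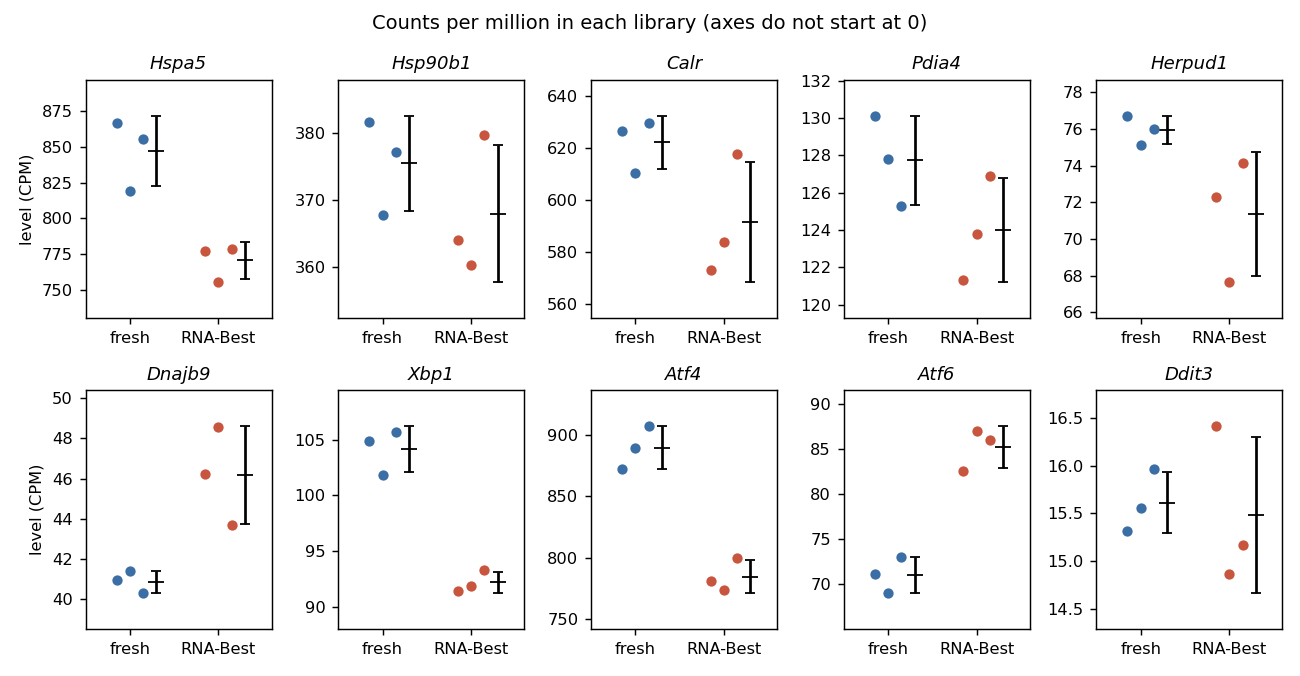
Level of each of the 10 genes in CPM (vertical axes, which do not start at 0) in each of the 3 fresh (blue) and 3 RNA-Best (red) libraries, with the mean and SD beside the points. For *Hspa5*, *Herpud1*, *Xbp1* and *Atf4* all RNA-Best points lie below all fresh points, and for *Dnajb9* and *Atf6* above them.

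The lumenal chaperones are described first. *Hspa5* (BiP, the Hsp70 of the ER, which also holds the stress sensors inactive) lies on chromosome 2 from 34771970 to 34777547 of GRCm38. This span is from GENCODE, and the printed ERSE stretch lies inside it, because the RefSeq start of the window is further downstream. The level of *Hspa5* was 867, 819 and 855 CPM in fresh libraries 1 to 3 and 777, 755 and 779 CPM in RNA-Best libraries 1 to 3. The groups did not overlap, and the lowest of all libraries was RNA-Best replicate 2. *Hspa5* fell by 0.15 on the log2 scale (standard error 0.03, edgeR adjusted p = 2.72e-05), which is 9.77% lower. With the GC offset it was -0.25, more than 1.5 times as large.

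*Hsp90b1* (GRP94, the Hsp90 of the ER) had 382, 368 and 377 CPM in fresh and 364, 360 and 380 CPM in RNA-Best libraries. The groups overlapped, because RNA-Best replicate 3 lay above 2 of the fresh libraries. Its log2 fold change was -0.04, with a 95% interval from -0.10 to 0.02 (edgeR adjusted p = 0.288). It passed at -0.18 under the GC offset and at -0.08 when low counts were not filtered (edgeR adjusted p = 1.24e-06 and 0.0180). With single libraries left out it did not pass. It then ranged from -0.02, without RNA-Best replicate 2, to -0.06, without RNA-Best replicate 3. *Hsp90b1* shares 415 exonic bases with a pseudogene on the opposite strand, 1810014B01Rik, and whether counting used strand is not given in the sources used here.

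*Calr* (calreticulin, a calcium-binding lectin chaperone for glycoproteins) had 627, 610 and 629 CPM in fresh and 573, 584 and 618 CPM in RNA-Best libraries. RNA-Best replicate 3 lay within the fresh range. *Calr* fell by 0.08 on the log2 scale (standard error 0.03, edgeR adjusted p = 0.0165). It did not pass without RNA-Best replicate 1, at -0.06, or replicate 2, at -0.07 (edgeR adjusted p = 0.144 and 0.0649), nor with the length offset, at -0.03 (edgeR adjusted p = 0.379). On unfiltered counts it was -0.13, over 1.5 times as large (edgeR adjusted p = 2.45e-05).

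*Pdia4* (ERp72, a protein disulfide isomerase) had 130, 128 and 125 CPM in fresh and 121, 124 and 127 CPM in RNA-Best libraries, again with overlap. Its log2 fold change was -0.06, with a 95% interval from -0.13 to 0.01 (edgeR adjusted p = 0.181). It turned to 0.01 with the length offset, and passed at -0.13 with the GC offset and at -0.10 with no filter (edgeR adjusted p = 0.00178 and 0.0243). The summed level of these 4 chaperones was 1925 to 2005 CPM in fresh and 1823 to 1903 CPM in RNA-Best libraries.

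Of the genes whose products act in disposal of misfolded proteins, *Herpud1* encodes an ER membrane protein that helps assemble the degradation machinery. It had 76.7, 75.2 and 76.0 CPM in fresh and 72.3, 67.6 and 74.2 CPM in RNA-Best libraries. All RNA-Best values were below all fresh values, and yet the test did not pass. Its log2 fold change was -0.09, with a 95% interval from -0.17 to -0.003 before adjustment (edgeR adjusted p = 0.0784). It passed with no filter at -0.14 and after thinning to the shallowest library at -0.18 (edgeR adjusted p = 0.0109 and 0.0216), and was -0.02 with the length offset.

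*Dnajb9* (ERdj4, a J-domain cochaperone of BiP) had 40.9, 41.4 and 40.3 CPM in fresh and 46.2, 48.6 and 43.7 CPM in RNA-Best libraries. All RNA-Best values lay above all fresh values, and their coefficient of variation was 5.27%, against 1.33% in fresh libraries. *Dnajb9* rose by 0.14 on the log2 scale (standard error 0.05, edgeR adjusted p = 0.0226). Among the 10 genes its call was lost under the most alternatives. It did not pass without RNA-Best replicate 1, at 0.13, or replicate 2, at 0.12 (edgeR adjusted p = 0.0906 and 0.0934), nor in DESeq2 (Wald test, adjusted p = 0.0731), in edgeR on unfiltered counts, at 0.09 (edgeR adjusted p = 0.243) or after thinning, at 0.04 (edgeR adjusted p = 0.776). With the GC offset it was -0.02. Its transcript had the lowest GC content of the 10, at 40.6%.

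The transcription factors moved in both directions. *Xbp1*, the target of IRE1, had 105, 102 and 106 CPM in fresh and 91.4, 91.9 and 93.3 CPM in RNA-Best libraries. The RNA-Best values lay close together and well below the fresh ones. *Xbp1* fell by 0.18 on the log2 scale (standard error 0.04, edgeR adjusted p = 1.14e-04), which is 11.9% lower.

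*Atf4*, the effector of PERK and of other kinases of the integrated stress response, had 872, 889 and 907 CPM in fresh and 781, 773 and 799 CPM in RNA-Best libraries. It lies on chromosome 15 from 80255184 to 80257541. The groups were separated by more than the range within either. *Atf4* fell by 0.19 on the log2 scale (standard error 0.03, edgeR adjusted p = 2.09e-07), or 12.5% lower, which was the largest fall among the 10 genes in this fit. With the length offset it was -0.12 and with the GC offset -0.13, both over 1.5 times smaller and still past the test (edgeR adjusted p = 3.57e-04 and 7.21e-05).

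*Atf6*, the sensor that is itself a transcription factor, had 71.1, 69.0 and 73.0 CPM in fresh and 82.5, 87.0 and 86.0 CPM in RNA-Best libraries. Every RNA-Best library was above every fresh one. *Atf6* rose by 0.25 on the log2 scale (standard error 0.04, edgeR adjusted p = 3.27e-06), or 19.2% higher, which was the largest change of the 10 in either direction in this fit. The largest was *Hspa5*, at -0.25, with the GC offset, *Dnajb9*, at 0.20, with the length offset and *Atf4*, at -0.24, with no filter. At 9231 exonic bases *Atf6* was also by far the longest of the 10, and with the length offset its log2 fold change was 0.03 (edgeR adjusted p = 0.663). It was 0.16 with the GC offset, over 1.5 times smaller, and still passed (edgeR adjusted p = 0.00134). The ratio of *Atf4* to *Atf6*, both in CPM per kb, was 48.0 to 50.5 in fresh and 34.8 to 37.0 in RNA-Best libraries.

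*Ddit3* (CHOP, a factor linked to cell death under lasting ER stress) had 15.3, 15.6 and 15.96 CPM in fresh and 16.4, 14.9 and 15.2 CPM in RNA-Best libraries. RNA-Best replicate 1 was the highest of all 6 and replicate 2 the lowest. Its log2 fold change was -0.01, with a 95% interval from -0.17 to 0.15 (edgeR adjusted p = 0.913), the widest interval among the 10. It rested on 73 to 182 counts in the RNA-Best libraries. Its exons share 68 bases with *Mars* and 13 with Gm4189 on the opposite strand, so reads there cannot be told apart without strand. The annotation used for exonic lengths also holds a second entry named *Ddit3*, which shares 105 exonic bases on the same strand.

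**Figure D2:**
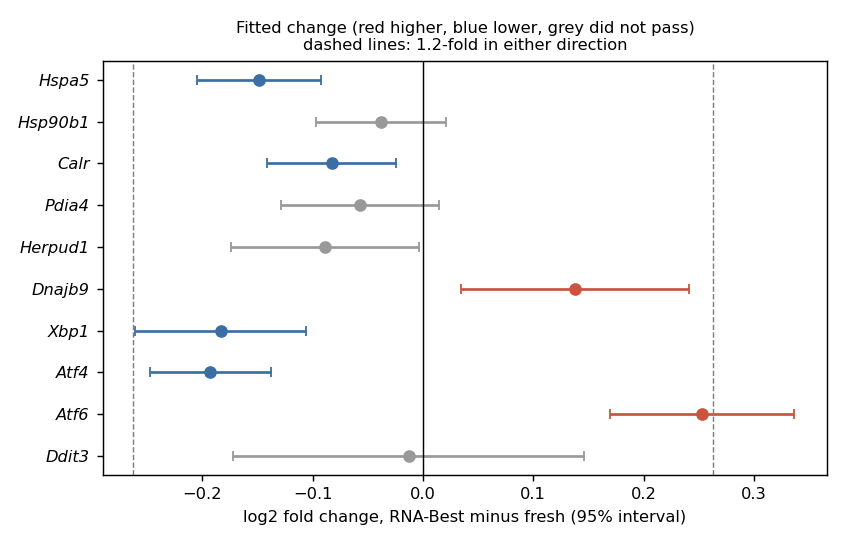
Log2 fold change of each of the 10 genes, RNA-Best minus fresh, from edgeR (horizontal axis) with its 95% interval before adjustment as the bar. Red points rose, blue points fell and grey points did not pass. *Atf6* lies farthest to the right at 0.25 and *Atf4* farthest to the left at -0.19, and no point lies beyond the dashed lines of a 1.2-fold change.

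Gene length moved with the change over all genes tested, and the members were read beside it. The median log2 fold change was -0.18 among genes of 1 to 2 kb of exons, -0.13 at 2 to 3 kb, -0.04 at 3 to 5 kb, 0.13 at 5 to 10 kb and 0.33 above 10 kb. *Calr*, *Pdia4*, *Herpud1*, *Dnajb9* and *Atf4* fall in the class of 2 to 3 kb, where 40.6% of genes fell and 6.44% rose. *Dnajb9*, at 0.14, lay above the 75th percentile of that class (0.015), and *Atf4*, at -0.19, lay between its 25th percentile (-0.23) and its median. *Hspa5*, *Hsp90b1* and *Xbp1* belong to the class of 3 to 5 kb, where 25.8% of genes fell. In that class the 25th percentile was -0.15, which *Hspa5* matched and *Xbp1* lay below. *Atf6* belongs to the class of 5 to 10 kb, where 45.2% of genes rose, and lay between the median and the 75th percentile (0.27). With the length offset *Hspa5*, *Xbp1* and *Atf4* still fell, at -0.17, -0.15 and -0.12 (edgeR adjusted p = 8.38e-06, 0.00118 and 3.57e-04), and *Dnajb9* still rose, at 0.20 (edgeR adjusted p = 0.00179), or 0.22 with the replicate block added. The part of length in the single changes was not tested otherwise.

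**Figure D3:**
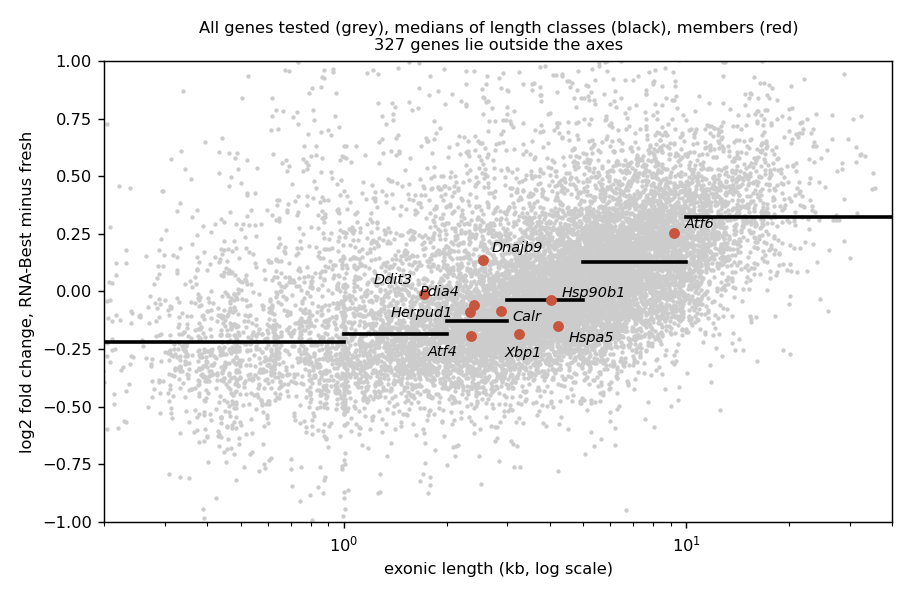
Log2 fold change, RNA-Best minus fresh (vertical axis), against exonic length in kb (log scale) for the 14689 tested genes with a length (grey, 327 of them beyond the axes), with the median of each length class (black lines) and the 10 genes (red). *Xbp1*, *Hspa5* and *Atf4* sit below the line of their class and *Hsp90b1* close to it. The others sit above, among them *Dnajb9* and *Atf6*, at 9231 bases.

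The same response was then followed in 84 further genes, in lists of folding enzymes, ER-associated degradation, sensors, targets of ATF4 and CHOP, and ER protein entry. All 84 were tested, and 56 passed, 41 lower and 15 higher in RNA-Best, or 66.7% beside 50.8% of all genes. The median log2 fold change was -0.09. With the length offset 47 fell and 4 rose, where 3706 of all 14689 genes fell and 2283 rose. With the GC offset 50 fell and 7 rose, where 3859 of all 14677 genes fell and 3208 rose. All but 3 changes were under 0.5 on the log2 scale, and glmTreat passed 8 genes.

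Beside the counts of the lists stand the shares of all genes given above, 26.0% higher and 24.8% lower. Among 20 other ER folding genes, 11 fell and 5 rose (80.0% passed), with a median log2 fold change of -0.08. The split was 13 and 1 with the GC offset and 10 and 1 with the length offset. Without RNA-Best replicate 1 only 10 of the 20 passed (7 fell and 3 rose), where 6505 of all 15015 genes did. DESeq2 also passed 10 (8 fell and 2 rose), where it passed 5955 of all 14736 genes. With any other single library left out 13 to 14 passed, and 2 rose without RNA-Best replicate 3 or fresh replicate 2. *Hyou1*, a large Hsp70 relative that exchanges nucleotide on BiP, had 210.7 to 215.5 CPM in fresh and 199.9 to 210 CPM in RNA-Best libraries. It fell by 0.07 on the log2 scale (edgeR adjusted p = 0.0448), and by 0.23 with the length offset, 0.13 after thinning and 0.12 on unfiltered counts, each over 1.5 times as much. The call ended under other settings, among them the GC offset, at -0.06, DESeq2, the replicate block and every single-library omission except those of RNA-Best replicate 2 and fresh replicate 3. *Canx*, the membrane-bound counterpart of calreticulin, was at -0.06 and did not pass (edgeR adjusted p = 0.0815), but did at -0.20 under the GC offset, at -0.10 under the length offset, at -0.11 on unfiltered counts and at -0.08 without fresh replicate 2. Without fresh replicate 1 it was -0.03 (edgeR adjusted p = 0.386). The genes with the lowest and highest change past the test were picked for their size. *Sdf2l1*, an ER chaperone component, went from 104 to 112 CPM in fresh down to 75.8 to 87.3 CPM after preservation. Its log2 fold change was -0.38 (edgeR adjusted p = 5.69e-09), and was -0.25 with the length offset. *Ero1lb*, an oxidase that recharges disulfide isomerases, went from 26.0 to 27.8 CPM up to 28.3 to 30.8 CPM, at 0.16 (edgeR adjusted p = 0.0292), and no longer passed with either offset, with DESeq2, with no filter, after thinning, or without RNA-Best replicate 1 or 3 or fresh replicate 2.

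In ER-associated degradation, 5 of 20 genes fell and 4 rose, and with either offset 8 fell and 2 rose. *Sel1l*, the scaffold of the HRD1 ubiquitin ligase, had 252 to 270 CPM in fresh and 342 to 345 CPM in RNA-Best libraries. It rose by 0.36 on the log2 scale (edgeR adjusted p = 2.16e-12), and by 0.16 with the length offset, still past the test. *Syvn1*, which encodes HRD1 itself, was at -0.02 and did not pass (edgeR adjusted p = 0.693). Picked for size, *Edem3*, a mannosidase-like protein that marks glycoproteins for disposal, went from 46.9 to 51.6 CPM up to 70.5 to 73.9 CPM, at 0.55 (edgeR adjusted p = 2.71e-12). *Ube2g2*, a ubiquitin-conjugating enzyme, went from 25.9 to 27.0 CPM down to 17.3 to 20.7 CPM, at -0.45 (edgeR adjusted p = 9.31e-07). Its exons share 166 bases with another gene, Gm49325, on the same strand.

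Of the 10 sensors and partners, 4 fell and 3 rose (70.0% passed), and with the length offset 5 fell and 1 rose. *Ern1*, which encodes IRE1 and is named both by its place in the list and by its size, had 24.9 to 29.5 CPM in fresh and 40.3 to 44.1 CPM in RNA-Best libraries. It rose by 0.56 on the log2 scale (edgeR adjusted p = 9.84e-10), and by 0.37 with the length offset, over 1.5 times less, still past the test. *Eif2ak3*, which encodes PERK, was at 0.11 and did not pass (edgeR adjusted p = 0.0816), although it did without fresh replicate 1, at 0.13 (edgeR adjusted p = 0.0482). It was 0.04 without RNA-Best replicate 3 (edgeR adjusted p = 0.641) and 0.003 with the length offset (edgeR adjusted p = 0.975). The difference between *Ern1* and *Eif2ak3* was not tested. *Atf6b*, the paralog of *Atf6*, was picked for size: it went from 116 to 118 CPM down to 97.2 to 104 CPM, at -0.23 (edgeR adjusted p = 1.83e-06), and was -0.11 with the GC offset, still past the test. *Atf6* rose and *Atf6b* fell, and their exons sum to 9231 and 2757 bases.

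Among 20 known targets of ATF4 and CHOP, 13 fell and 3 rose (80.0% passed), with a median log2 fold change of -0.18. That was the lowest of the lists in the reported fit, but the translocon list was lower with the GC offset, at -0.195 against -0.14, with the length offset, at -0.18 against -0.165, and with the length offset and replicate block together. Leaving out single libraries gave 12 to 13 falls, and the length offset 14. The rises were 1 to 3 with single libraries left out, 1 with the GC offset or in DESeq2, and 0 with the length offset. *Asns*, asparagine synthetase, had 262 to 280 CPM in fresh and 239 to 250.1 CPM in RNA-Best libraries and fell by 0.17 on the log2 scale (edgeR adjusted p = 3.21e-05). *Trib3*, a pseudokinase induced by ATF4 and CHOP, had 76.4 to 81.2 CPM and 61.3 to 68.2 CPM and fell by 0.28 (edgeR adjusted p = 2.54e-06), or by 0.18 with the GC offset, over 1.5 times less. Picked for size, *Phgdh*, the first enzyme of serine synthesis, was at -0.33 (edgeR adjusted p = 2.01e-07), with parts of counts in all 6 libraries. *Vldlr*, a lipoprotein receptor with 10068 exonic bases, was at 0.28 (edgeR adjusted p = 4.94e-09), at 0.155 with the GC offset and at 0.02 with the length offset, where it did not pass.

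Of 15 genes of the translocon and signal peptidase, through which proteins enter the ER, 8 fell and 1 rose, and with the GC offset 12 fell. *Sec61a1*, the channel subunit, was at -0.01 and did not pass (edgeR adjusted p = 0.839), but fell by 0.15 with the length offset (edgeR adjusted p = 5.26e-04). *Sec61b*, a small subunit of the channel with 1271 exonic bases, went from 85.8 to 87.5 CPM down to 59.6 to 63.3 CPM, at -0.52 (edgeR adjusted p = 1.43e-12). *Sec63*, which recruits BiP to the channel, was the gene that rose, at 0.20 (edgeR adjusted p = 2.14e-04), but it did not pass with the GC offset, at 0.08, and was at -0.01 with the length offset.

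Heat shock genes outside the ER, with the transcription factor *Hsf1* and the cochaperone *Bag3* among them, served as the comparison for *Hspa5* and *Hsp90b1*. Of 15 such genes 6 fell in edgeR, *Hsf1* among them, 5 in limma-voom and 4 in DESeq2. In each of these 0 rose, also at an unadjusted p under 0.05. In edgeR 40.0% passed, beside 50.8% of all genes. Their median log2 fold change was -0.02, and -0.11 with the GC offset, where that of the 10 members was -0.12. With the length offset it was below that of the members, at -0.06 against -0.02, and likewise with the replicate block added, at -0.06 against -0.03. *Hspa8*, the constitutive cytosolic Hsp70, had 1947 to 1990 CPM in fresh and 1929 to 1985 CPM in RNA-Best libraries, at -0.02 (edgeR adjusted p = 0.610), and passed at -0.11 with the GC offset and at -0.06 with no filter. With single libraries left out it did not pass, and ranged from -0.0041, without RNA-Best replicate 1, to -0.0267, without fresh replicate 2. *Hsp90ab1*, a cytosolic Hsp90, was at 0.01 (edgeR adjusted p = 0.704). Picked for size, *Hspe1*, a mitochondrial cochaperonin, was at -0.39 (edgeR adjusted p = 3.97e-09), and the highest among those that passed, *Dnaja1*, was at -0.12 (edgeR adjusted p = 0.00189), and more than 1.5 times as low with the GC offset, at -0.27, and the length offset, at -0.33. Parts of counts stood in all 6 libraries of *Hspa8* and *Hspe1*, *Hspe1* shares 112 exonic bases with *Hspd1* on the opposite strand, and *Dnaja1* shares 608 with *Smu1* and 249 with Gm6297 there, so these values are uncertain. The same holds for *Sec61a1* (549 bases with Gm44170), *Eif2ak3* (485 with Gm43292), *Sec63* (173 with Gm26860) and *Syvn1* (91 with *Mrpl49*), all on the opposite strand.

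**Figure D4:**
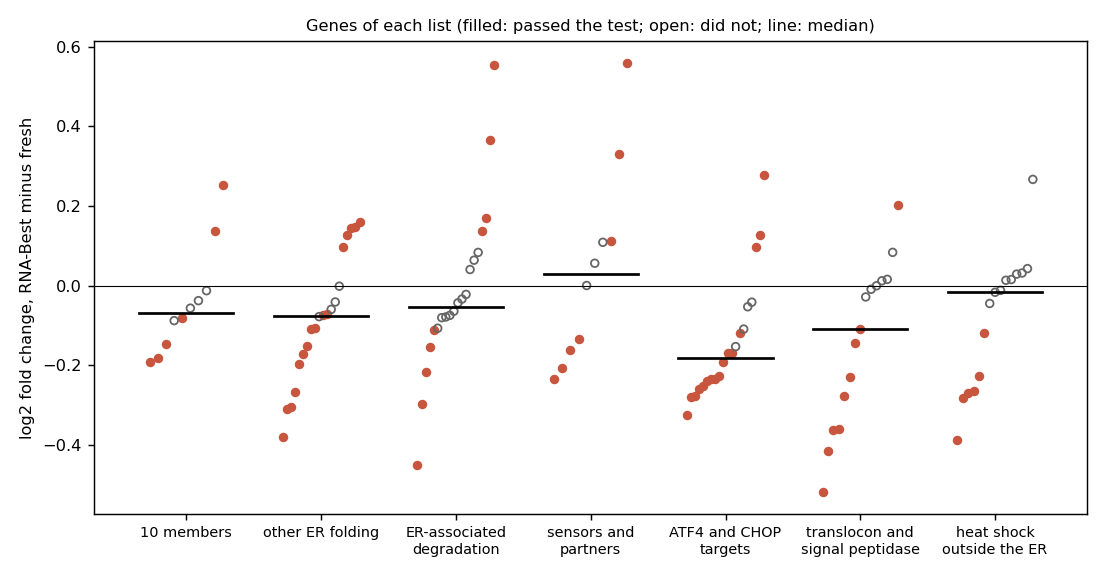
Log2 fold change, RNA-Best minus fresh (vertical axis), of the 10 members and of the genes of each list, each point a gene (filled where it passed the test, open where it did not), with the median as a line. In this fit the median of the targets of ATF4 and CHOP is the lowest at -0.18 (the translocon list is lower with the GC or length offset), and *Ern1* and *Edem3* are the highest points at 0.56 and 0.55.

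The genes with an ERSE in their window were read last. Of 37 such genes 14 were tested, of which 3 fell, 4 rose and 7 did not pass, with a median log2 fold change of -0.03. Among all genes 26.0% rose and 24.8% fell, so 7 of 14 past the test is near the background. They included 6 of the further genes: *Canx*, *Creld2*, *Derl3*, *Dnajc3*, *Pdia6* and *Syvn1*. *Creld2*, at -0.27, and *Dnajc3*, at 0.15, both passed, in opposite directions (edgeR adjusted p = 9.89e-07 and 4.28e-04). *Derl3*, at -0.11, *Pdia6*, at -0.08, *Canx* and *Syvn1* did not pass (edgeR adjusted p = 0.368, 0.0787, 0.0815 and 0.693). The values of *Creld2*, *Dnajc3*, *Derl3* and *Pdia6* come from the reported fit alone. Of 12 genes with an ERSE-II, 8 were tested, of which 4 fell and 1 rose, beside 50.8% of all genes past the test, at a median of -0.08, and *Herpud1* and *Dnajb11* were among them. Of the members with an ERSE, *Hspa5* and *Calr* fell and *Hsp90b1*, which has both of its matches printed above, did not pass. *Atf4* and *Xbp1*, which fell, had neither motif in their windows.

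**Figure D5:**
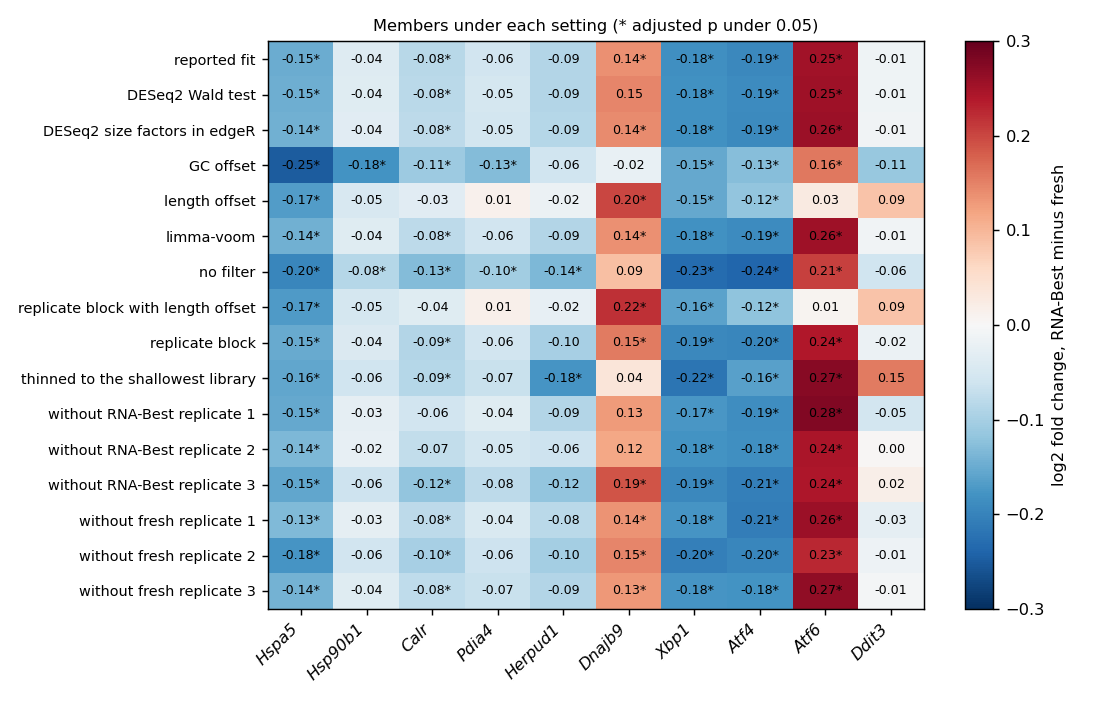
Log2 fold change of each of the 10 genes, RNA-Best minus fresh, in the reported fit (top row) and under 15 other settings (rows), with blue for lower and red for higher in RNA-Best and an asterisk where the adjusted p was under 0.05. *Hspa5*, *Xbp1* and *Atf4* are blue with an asterisk in every row shown, and *Atf6* loses it in the 2 rows with a length offset.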

How the data were processed

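RNA-seq was analysed in 6 LβT2 libraries, 3 per group. The authors aligned reads with STAR 2.5.1b to GRCm38 (GENCODE M8) and counted them per gene with featureCounts 1.5.0-p1; the deposited values are estimated counts, not scaled for depth. In a library 9.36% to 16.3% of values lay over 0.001 from a whole number, by a setting not given in the sources used here, so values were rounded for the tests.

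In R 4.3.3, edgeR 4.0.16 (TMM factors, filterByExpr with a minimum count of 10) gave the main quasi-likelihood test over all genes; limma 3.58.1 (voom, the method of the study) and DESeq2 1.42.0 were alternatives. Standard errors are the log2 fold change divided by the root of F. CPM used column totals. Positions, exonic lengths and GC content of the longest transcript came from GENCODE M21, which matched 46574 of 47069 genes. Offsets were loess fits with a span of 0.5. Scripts were tested on simulated data.

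Pairs of libraries within a group differed beyond counting noise (chi-square of 1.08 to 1.95 per gene). Members and lists were chosen with earlier results of these data known. Named are the members, the first 2 genes of each list, and its highest and lowest change past the test with groups that did not overlap. The list symbols *Selk* and *Ufd1l* were matched under later names. Genes named outside this rule (*Creld2*, *Derl3*, *Dnajc3*, *Pdia6*, *Dnajb11*) are list genes with a motif match. At a count of 0 a level of up to 3 counts, or 0.0632 to 0.611 CPM by library, is still possible, for counting error only. Single-cell and qPCR data were not analysed here.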

Additional observations from a re-analysis of the deposited data

How the results depend on the processing

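Each of the 10 genes was refitted under 16 alternatives, which gave 160 results, and 129 kept their direction and side of the threshold, 17 lost the call, 6 gained one and 8 changed sign. Of the 17, 6 were under the 1.2-fold test. *Hspa5*, *Xbp1* and *Atf4* kept their call under every alternative except that test. The 1.2-fold test passed 1693 genes in all, 0 of the 10 genes and 8 of the 84 further genes, by its own construction. Otherwise the number of genes that passed was 5285 to 7637, that of the 10 genes 4 to 8 and that of the 84 genes 45 to 57. Leaving out single libraries gave 6357 to 7273, 4 to 6 and 45 to 57. On unfiltered counts the median change of all genes was -0.0644 (log2).

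Some values changed sign. With the length offset *Pdia4* was 0.0124, *Ddit3* 0.0860 and *Sec63* -0.0109, and with replicate block and length offset together they were 0.0144, 0.0856 and -0.00522, while *Eif2ak3* was -0.00960. With the GC offset *Dnajb9* was -0.0211, *Syvn1* 0.0557 and *Sec61a1* 0.0338. After thinning *Ddit3* was 0.155, *Syvn1* 0.0136 and *Sec61a1* 0.0141, and with no filter *Hsp90ab1* was -0.0336. With single libraries left out *Ddit3* ranged from -0.0549 to 0.0176, and was above 0 without replicate 2 or 3 of RNA-Best. *Syvn1* ranged from -0.0733 to 0.0309, and was above 0 without RNA-Best replicate 3 or fresh replicate 2. *Sec61a1* ranged from -0.0267 to 0.0224, and was above 0 without RNA-Best replicate 3 or fresh replicate 1. The cause was not tested. The refits of the 22 named genes outside the 10 were added after the data were seen, and 301 of 352 kept direction and call.

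No pairing by replicate number showed in the libraries, whose deviations from the group means had correlations of -0.00844, 0.0121 and -0.0077. Libraries within the RNA-Best group differed little beyond counting noise (chi-square of 1.08 to 1.26 per gene). A shared origin could therefore stay hidden, and these values cannot settle whether the libraries were paired. With the replicate block 7472 genes passed, 6 of the 10 and 56 of the 84, and *Hyou1* lost its call, alone among the 10 genes and the 22 refitted ones (edgeR adjusted p = 0.0566). Thinning was drawn once, to the depth of the shallowest library.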
